A study of Drosophila melanogaster with 12 samples.

Results

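Glycogen and trehalose are the carbohydrate stores of an insect larva, and 7 genes of their metabolism are described here, out of 13650 rows in each of 2 deposited tables. The members were listed by name for their role, and a row was taken where its gene name held a member's name. Each of the 7 had 1 row of its own in both tables. RNA was sequenced from the carcass of Drosophila melanogaster larvae in the late foraging period of the last larval instar. Dissection takes out the internal guts, and the carcass that is left is mainly body wall muscle and epidermis. The 12 libraries formed 4 groups of 3.

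In the first experiment Smox was mutated, a Smad transcription factor through which Activins, ligands of the TGF-beta family, act on genes. Its mutant group had the genotype Smox(Smad2)F4/Y, a mutant allele over the Y chromosome, in every cell of the animal, and its reference was w1118, used as wild type, whose sex the labels do not state. Both were untreated and fed with yeast paste on plates of apple juice. In the second the pathway was turned on in muscle through Baboon, the Activin receptor upstream of Smox. Its larvae were tub-Gal80ts/+;MhcGal4/baboACT, and the reference was tub-Gal80ts/+;MhcGal4/+. MhcGal4 drives the activated receptor from the Myosin heavy chain promoter in muscle, and Gal80ts holds Gal4 inactive until the larvae are warmed. Both of these groups ate standard vial food and spent 12 h at 30 °C just before RNA was extracted. Age beyond the stage, and whether a group's 3 libraries hold different animals, are not stated by the labels. The groups are called w1118, smox, MhcGal4 and baboACT below.

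Glycogen is a branched chain of glucose that a cell builds and breaks down in its own cytoplasm. Glycogen synthase lengthens the chain, glycogen phosphorylase cuts glucose 1-phosphate from it, and phosphoglucomutase turns that product into glucose 6-phosphate or makes it for synthesis. Trehalose is a disaccharide of glucose and the main blood sugar of insects: fat body makes it with trehalose 6-phosphate synthase and releases it, carriers such as Tret1-1 move it across membranes, and trehalase splits it into glucose. Hexokinases then trap that glucose inside the cell as glucose 6-phosphate. In muscle these routes meet at glucose 6-phosphate, the entry to glycolysis. Synthase and phosphorylase are strongly controlled by phosphorylation, which RNA levels do not show.

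The tables hold 1 value per gene and group in FPKM, fragments scaled by transcript length and library size, so levels of different genes can be compared. No table holds values of single libraries, so no spread between libraries stands beside any FPKM, and read depth is unknown. A gene is written as called, risen or fallen where the q-value of the authors' comparison, a p-value adjusted for many tests, was under 0.05, its mean FPKM was at least 1 and it was above 0 in both groups. Fold changes are log2 ratios of smox over w1118 and of baboACT over MhcGal4. The experiments differ in food, heat and genetic background and were tabulated separately, so levels are compared within an experiment. The check of the mutant was the Smox transcript, at 23.9 FPKM in w1118 but 1.40 FPKM in smox. In the second experiment the babo row was at 13.2 FPKM in MhcGal4 and 15.6 FPKM in baboACT. This log2 fold change of 0.23 was called (the authors' deposited table gives q = 0.00424). Whether that row counts transcripts of the activated transgene is not stated, so it is no check of the activation. In smox babo was called lower, at a log2 fold change of -0.22 (the authors' deposited table gives q = 0.000558). Transcripts of muscle were abundant, with Mlc1, a myosin light chain gene, between 6080 and 8429 FPKM in the 4 groups, though Mhc is listed at 0 in smox and in MhcGal4 and Mlc2 at 0 in MhcGal4.

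The order of the 7 levels was nearly the same in all groups. GlyP, which encodes glycogen phosphorylase, was the highest member everywhere, between 1338 and 2267 FPKM. Pgm, the phosphoglucomutase gene, followed at 484 to 672 FPKM and CG6904, the glycogen synthase gene (Glys in current annotation), at 147 to 218 FPKM. The trehalase gene Treh and the trehalose carrier gene Tret1-1 lay between 19.3 and 65.0 FPKM. Tps1, the trehalose 6-phosphate synthase gene, was at 1.00 to 1.85 FPKM, and Hex-C, one of the hexokinase genes, at 0.140 to 0.388 FPKM. The order of GlyP, Pgm, CG6904, the pair Treh and Tret1-1, Tps1 and Hex-C held in each of the 4 groups, and Treh and Tret1-1 were the neighbours that changed places. Whether any neighbours differ beyond the spread between libraries cannot be said from group values. GlyP ranked 115 from the top of all rows in w1118 and 73 in MhcGal4, while Tps1 lay above 3.18% and 7.03% of the genes that reached the minimum mean of 1 FPKM in the same groups.

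**Figure D1:**
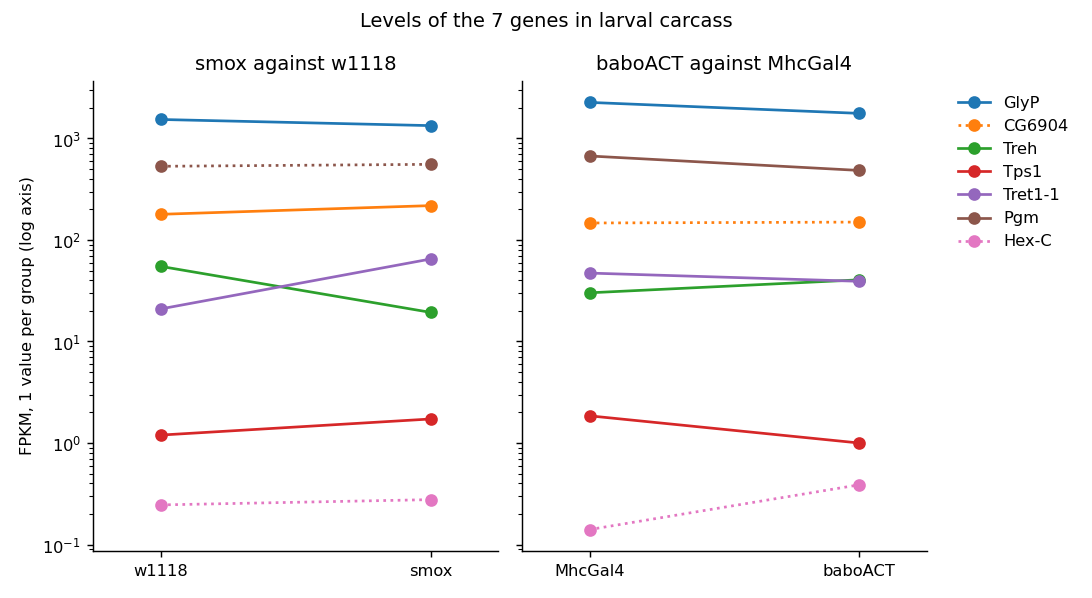
FPKM of the 7 genes in the 4 groups on a log axis, 1 point per group and 1 panel per experiment, with solid lines where the gene was called and dotted lines where it was not. GlyP is at the top and Hex-C at the bottom of both panels, and the lines of Treh and Tret1-1 cross in each.

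Of the 6 members that could be tested, 5 were called in smox, 3 higher and 2 lower. Over all 7977 genes tested there, 58.1% were called, 18.4% higher and 39.8% lower. With activated Baboon 5 of 6 were called as well, 1 higher and 4 lower, where 43.8% of 8018 genes were called, 29.1% higher and 14.7% lower. The median log2 fold change of the 6 was 0.17 in smox, beside -0.14 over all genes tested, and -0.31 in baboACT, beside 0.08 over all genes tested. Because the median gene of the smox table lies at -0.14, the members' fold changes of that experiment are also given relative to it. The share called is high in both tables, so the number of calls by itself says little about these genes, and the sizes below carry more.

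Among the glycogen genes, the synthase transcript rose in smox while the phosphorylase transcript fell in both experiments, all by small amounts. CG6904, on 3R from 10967562 to 10973329 by the tables' own coordinates, whose build they do not name, had 179 FPKM in w1118 and 218 FPKM in the mutant, a log2 difference of 0.28, or 0.43 relative to the median gene (the authors' deposited table gives q = 0.000152). In MhcGal4 it stood at 147 FPKM and in baboACT at 150 FPKM, a log2 fold change of 0.03 that was not called (the authors' deposited table gives q = 0.809). The mutant was therefore the higher group of its pair by 21.8%, and the pair of the other experiment was 2.07% apart.

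GlyP, on 2L from 2130815 to 2137296, had 1539 FPKM in w1118 and 1338 FPKM in the mutant, a log2 difference of -0.20 (the authors' deposited table gives q = 0.00377). Relative to the median gene of that table the change was -0.06, so the fall of GlyP was close to that of the typical transcript there. With activated Baboon it went from 2267 to 1767 FPKM, a log2 fold change of -0.36 (the authors' deposited table gives q = 0.000782). After quantile normalization the GlyP changes were both -0.13, smaller than the deposited values. GlyP was lower in both experiments, and 62.8% of tested genes changed more in smox and 32.1% in baboACT.

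Pgm, on 3L from 16119155 to 16121696, had 532 FPKM in w1118 and 556 FPKM in the mutant and was not called (log2 fold change 0.06, or 0.21 relative to the median gene, the authors' deposited table gives q = 0.360). With activated Baboon it fell from 672 to 484 FPKM, a log2 fold change of -0.47 (the authors' deposited table gives q = 0.000217, the lowest q there). In percent of the reference level Pgm fell by 27.9% there and GlyP fell by 22.0%.

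A ratio of 2 levels within a group is not changed by a scaling factor common to all genes of that group. The ratio of GlyP to CG6904 went from 8.59 in w1118 to 6.14 in smox, and from 15.4 in MhcGal4 to 11.8 in baboACT. On the log2 scale these are changes of -0.49 and -0.39. Quantile normalization rescales each gene by its rank and not by a common factor. After it the change was -0.47 in smox but 0.0098 in baboACT, so the lower ratio in baboACT did not hold after that step. The ratio of GlyP to Pgm went from 2.89 to 2.41 and from 3.37 to 3.65, log2 changes of -0.26 and 0.11 that became -0.17 and 0.48 after quantile normalization. No test was made of these ratios, which have no replicates.

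In smox the genes of trehalose use, trehalase and the carrier, had the largest fold changes of the 6 tested members, and they went opposite ways in each experiment. In baboACT Tps1 and Pgm changed more than either. Treh, which encodes trehalase, the enzyme that splits trehalose, lies on 2R from 16961530 to 16975733. Its level was 54.9 FPKM in w1118 but 19.3 FPKM in the mutant, 2.84 times lower (log2 fold change -1.51, or -1.36 relative to the median gene, the authors' deposited table gives q = 0.000152). It rose from 30.2 FPKM in MhcGal4 to 40.5 FPKM in baboACT, a log2 fold change of 0.43 (the authors' deposited table gives q = 0.000217). The change in baboACT was 0.22 after quantile normalization. In smox, 5.43% of tested genes had a larger change than Treh, and in baboACT 25.4%. In the BDGP6 annotation 560 exonic bases of Treh overlap the neighbouring gene Rbpn-5, whose row CG4030 was at 11.4 FPKM in both w1118 and smox and was not called in either experiment. In the tables the loci of both rows do not overlap.

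Tret1-1, the gene of a carrier that moves trehalose down its gradient, was the member with the largest rise. It had 21.0 FPKM in w1118 and 65.0 FPKM in the mutant, a 3.10-fold rise (log2 fold change 1.63, or 1.78 relative to the median gene, the authors' deposited table gives q = 0.000152). In baboACT it was lower, at 39.2 FPKM against 47.2 FPKM in MhcGal4, a log2 fold change of -0.27 (the authors' deposited table gives q = 0.0134). After quantile normalization the change in baboACT was -0.49. The change in smox was exceeded by 4.93% of tested genes and that in baboACT by 44.4%. The row's locus, on 2R from 7540261 to 7566857, is shared with Roc2, Tret1-2 and CG13198. In BDGP6 Tret1-1 lies within the span of Roc2 on the opposite strand, with 0 exonic bases in common. Roc2 was at 30.8 and 23.5 FPKM in w1118 and smox and was not called, and Tret1-2, a paralog of Tret1-1, did not exceed 0.167 FPKM in any group.

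The ratio of Treh to Tret1-1 brings both changes together. It was 2.62 in w1118 and 0.298 in smox, and 0.639 in MhcGal4 and 1.03 in baboACT. Trehalase transcripts thus outnumbered carrier transcripts per length in w1118, and the reverse held in smox. In baboACT the pair was nearly level, at 40.5 and 39.2 FPKM.

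**Figure D2:**
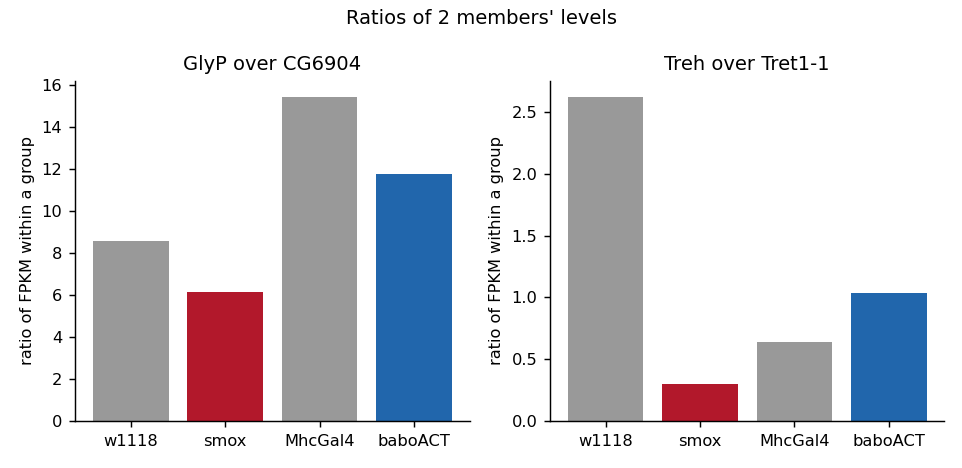
Ratio of the FPKM of GlyP to CG6904 (left) and of Treh to Tret1-1 (right) in the 4 groups, with no error bars because each group has 1 value. The first ratio is lower in smox than in w1118, and lower in baboACT than in MhcGal4 on the deposited scale but not after quantile normalization, and the second falls to 0.298 in smox and is 1.03 in baboACT.

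Tps1, which makes trehalose 6-phosphate, was low in every group and changed in opposite directions. It had 1.20 FPKM in w1118 and 1.72 FPKM in the mutant, a rise of 0.53 on the log2 scale, or 0.67 relative to the median gene (the authors' deposited table gives q = 0.0411). It fell from 1.85 FPKM in MhcGal4 to 1.00 FPKM in baboACT, a log2 fold change of -0.89 (the authors' deposited table gives q = 0.00131). At so low a level a pseudocount of 1 FPKM shrank these changes to 0.31 and -0.51. The call in smox had the highest q among the called members, with a test statistic of 1.38 in the authors' deposited table. The locus, on 2L from 4388321 to 4393814, is shared with CG3652, which overlaps Tps1 by 9 exonic bases in BDGP6. CG3652 moved the other way in both experiments, from 21.9 to 16.4 FPKM in smox and from 17.6 to 25.2 FPKM in baboACT.

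Synthesis of trehalose in flies is best known from fat body. Of 9 fat body marker genes, 8 were tested and 6 rose and 2 fell in smox, and their summed level went from 969 to 1987 FPKM. In baboACT 1 rose and 4 fell among 8, and the sum went from 1471 to 797 FPKM. Of all genes tested, 18.4% rose and 39.8% fell in smox, and 29.1% rose and 14.7% fell in baboACT. Yp1 is listed at 0 in w1118 and in baboACT. Tps1 moved in the same direction as these sums in both experiments, and the part of fat body in its change was not tested. In bulk carcass RNA, fewer cells of a type and less RNA per cell cannot be told apart, for the values above as well as for those that follow.

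Hex-C is known in flies as a hexokinase of fat body and gut. Its row was at 0.246 FPKM in w1118 and 0.277 FPKM in the mutant, and at 0.140 FPKM in MhcGal4 and 0.388 FPKM in baboACT. The authors' deposited table gives no test for it (p = 1, with a test statistic of 0), so no change is read from these values. The row's locus, on 2R from 11105886 to 11129084, also holds CG8079 and Fs, and in BDGP6 Hex-C lies within the span of CG8079 on the opposite strand. The hexokinase transcript of the carcass was that of Hex-A, at 41.7 to 60.2 FPKM, between 151 and 335 times the level of Hex-C in the 4 groups. Hex-A rose from 47.1 to 60.2 FPKM in the second experiment (0.36 on the log2 scale, the authors' deposited table gives q = 0.000217) and was not called in smox (the authors' deposited table gives q = 0.0832). The testis hexokinase genes Hex-t1 and Hex-t2 were under 0.1 FPKM in every group.

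Set side by side, 4 members were called in both experiments. Tret1-1 and Tps1 were higher in smox and lower with activated Baboon, Treh was lower in smox and higher with activated Baboon, and GlyP was lower in both. Relative to the median gene, the log2 fold change of GlyP in smox was only -0.06. Over the 7768 genes tested in both tables, 24.9% were called in opposite directions and 6.32% in the same direction, so opposite directions were also the common case among all genes. The experiments share no library.

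**Figure D3:**
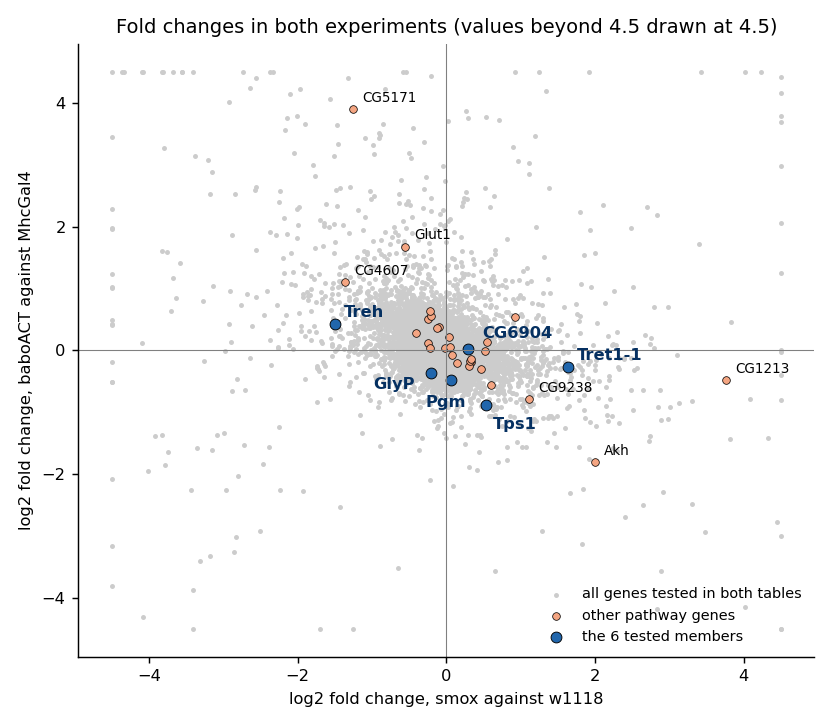
Log2 fold change in smox against w1118 (horizontal) and in baboACT against MhcGal4 (vertical), with all genes tested in both tables in grey, other pathway genes in orange and the 6 tested members in blue. Treh lies at the upper left and Tret1-1 at the lower right of the origin, while GlyP is below and left of it. Among the other pathway genes, CG5171 is the highest and CG1213 is farthest to the right.

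A further 41 genes of sugar storage and handling were listed by role, and 39 had a row. AkhR and Lst were not analysed here. Of the 29 that were tested in each experiment, 14 rose and 8 fell in smox, and 10 rose and 8 fell in baboACT. Over all genes tested, 18.4% rose and 39.8% fell in smox, and 29.1% rose and 14.7% fell in baboACT. The median log2 fold change of the listed genes was 0.07 in smox and 0.04 in baboACT, beside -0.14 and 0.08 over all genes tested. Among the 28 tested in both tables, 15 were called in both, 14 of them in opposite directions. Of those 14, 7 were higher in smox and lower with activated Baboon and 7 the reverse. The smox fold changes of these genes are given as deposited. Relative to the median gene they are higher by 0.14, which leaves sgg, sut1, CG10960 and the protein phosphatase gene Pp1-87B, which were called lower, at -0.06 to -0.11. For all genes called in both tables, the share with opposite directions was 79.8%.

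CG5171 had the largest change of all listed genes tested with activated Baboon. CG5171 and its neighbour CG5177 carry the domain of trehalose 6-phosphate phosphatase, which acts on trehalose 6-phosphate. They lie side by side on 2L, from 7401335 to 7404526 and from 7405214 to 7408475, with 687 bases between them. CG5171 went from 57.1 FPKM in MhcGal4 to 854 FPKM in baboACT, a 14.9-fold rise (log2 fold change 3.90, the authors' deposited table gives q = 0.000217) that 0.723% of tested genes exceeded. In smox it fell from 422 to 177 FPKM (log2 fold change -1.26, the authors' deposited table gives q = 0.000152). CG5177 was the more abundant one and moved the same ways by less, from 3350 to 2524 FPKM in smox and from 1889 to 2290 FPKM in baboACT. Both of these phosphatase-domain genes thus followed the direction of Treh and not that of Tps1, whose own domains were not examined. The trehalase paralog CG6262 did not exceed 0.0439 FPKM.

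The other genes of glycogen synthesis rose in smox where they were called. CG33138, the branching enzyme gene (AGBE in RefSeq), rose from 114 to 168 FPKM and Glycogenin, which primes new glycogen, from 1940 to 2434 FPKM. UGP, whose product makes the glucose donor of the synthase, had 115 and 118 FPKM and missed the threshold (the authors' deposited table gives q = 0.649). With activated Baboon 0 of these 3 genes were called, with log2 fold changes between -0.19 and 0.21 and the lowest q at 0.0611 in the authors' deposited table. The share called over all genes tested was 58.1% in smox and 43.8% in baboACT, and 3 genes are too few to set against it.

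The tested genes among those listed for glycogen breakdown changed little. The listed gene tobi was under the minimum mean of 1 FPKM in both experiments and is not among the tested genes, though the authors tested it in smox. Its level dropped from 1.01 to 0.482 FPKM with the mutation, a log2 fold change of -1.07 (the authors' deposited table gives q = 0.00892). With activated Baboon tobi went from 0.228 to 0.235 FPKM. CG9485, the debranching enzyme gene, rose from 40.3 to 50.0 FPKM in smox and stood at 37.5 and 33.3 FPKM in MhcGal4 and baboACT. CG7766, a regulatory subunit gene of phosphorylase kinase, rose from 57.8 to 63.7 FPKM in smox and fell from 82.4 to 71.4 FPKM in baboACT. PhKgamma, the catalytic subunit gene of that kinase, was not called in either experiment, at 56.5 and 48.4 FPKM and at 55.9 and 57.4 FPKM. CG14476 rose from 74.4 to 96.1 FPKM in baboACT and was not called in smox, at 97.8 and 90.9 FPKM. It is GCS2alpha in RefSeq, a glucosidase known for trimming glycoproteins in the endoplasmic reticulum and not for glycogen breakdown.

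Genes of regulatory proteins that act on glycogen or on the response to sugar gave larger changes. CG9238 (Gbs-70E in RefSeq), which brings protein phosphatase to glycogen, rose from 34.7 to 74.7 FPKM in smox (log2 fold change 1.11) and fell from 101 to 58.6 FPKM in baboACT (-0.79). CG9619 (Gbs-76A in RefSeq), of the same kind, rose from 77.1 to 107 FPKM and fell from 102 to 83.3 FPKM. The gene of the kinase Sgg, whose mammalian counterpart GSK3 inactivates glycogen synthase, fell from 58.6 to 50.9 FPKM in smox and rose from 56.0 to 82.7 FPKM in baboACT. The sugar-response regulator cbt rose in both, from 36.2 to 69.0 FPKM and from 72.8 to 106 FPKM, and foxo rose in smox alone among the called changes, from 23.5 to 33.5 FPKM, and stood at 21.8 FPKM in both groups of the other experiment. The gene sug, of a zinc finger factor of the sugar response, fell from 2.18 to 1.22 FPKM in baboACT (log2 fold change -0.84, the authors' deposited table gives q = 0.00637) and was under the minimum level in smox, at 0.260 and 0.981 FPKM in w1118 and smox. Mio, the fly counterpart of the glucose-sensing factor ChREBP (Mondo in RefSeq), was not called in either, at 14.0 to 17.5 FPKM. Of the regulators listed, 6 rose and 2 fell among 9 tested in smox, and 2 rose and 4 fell among 10 in baboACT. The shares over all genes tested were 18.4% and 39.8% in smox, and 29.1% and 14.7% in baboACT.

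Akh encodes adipokinetic hormone, which mobilises glycogen and fat and is made by neuroendocrine cells of the ring gland, not by muscle or epidermis. It rose from 1.50 to 5.98 FPKM in smox (log2 fold change 2.00, the authors' deposited table gives q = 0.000809) and fell from 10.7 to 3.05 FPKM in baboACT (-1.81, the authors' deposited table gives q = 0.000217). How much of that tissue remained in each carcass was not tested.

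Among the other sugar carrier genes listed, named for the family by sequence, CG1213 rose from 1.12 to 15.2 FPKM and sut2 from 1.24 to 7.66 FPKM in smox. CG1213 fell from 2.26 to 1.61 FPKM in baboACT, and sut2, at 0.238 and 1.02 FPKM in MhcGal4 and baboACT, was under the minimum mean. CG4607, Glut1, CG10960 and sut1 fell in smox, by log2 fold changes between -1.36 and -0.22. The same 4 genes rose with activated Baboon, Glut1 from 6.02 to 19.3 FPKM (log2 fold change 1.68), CG4607 from 6.55 to 14.1 FPKM (1.10), sut1 from 22.4 to 34.9 FPKM (0.64) and CG10960 from 75.0 to 107 FPKM (0.51). In the gluconeogenic list, CG10924 and Pepck, the genes of phosphoenolpyruvate carboxykinase, rose in smox (0.60 and 0.31 on the log2 scale) and fell in baboACT (-0.55 and -0.25), while fbp was not called in either.

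**Figure D4:**
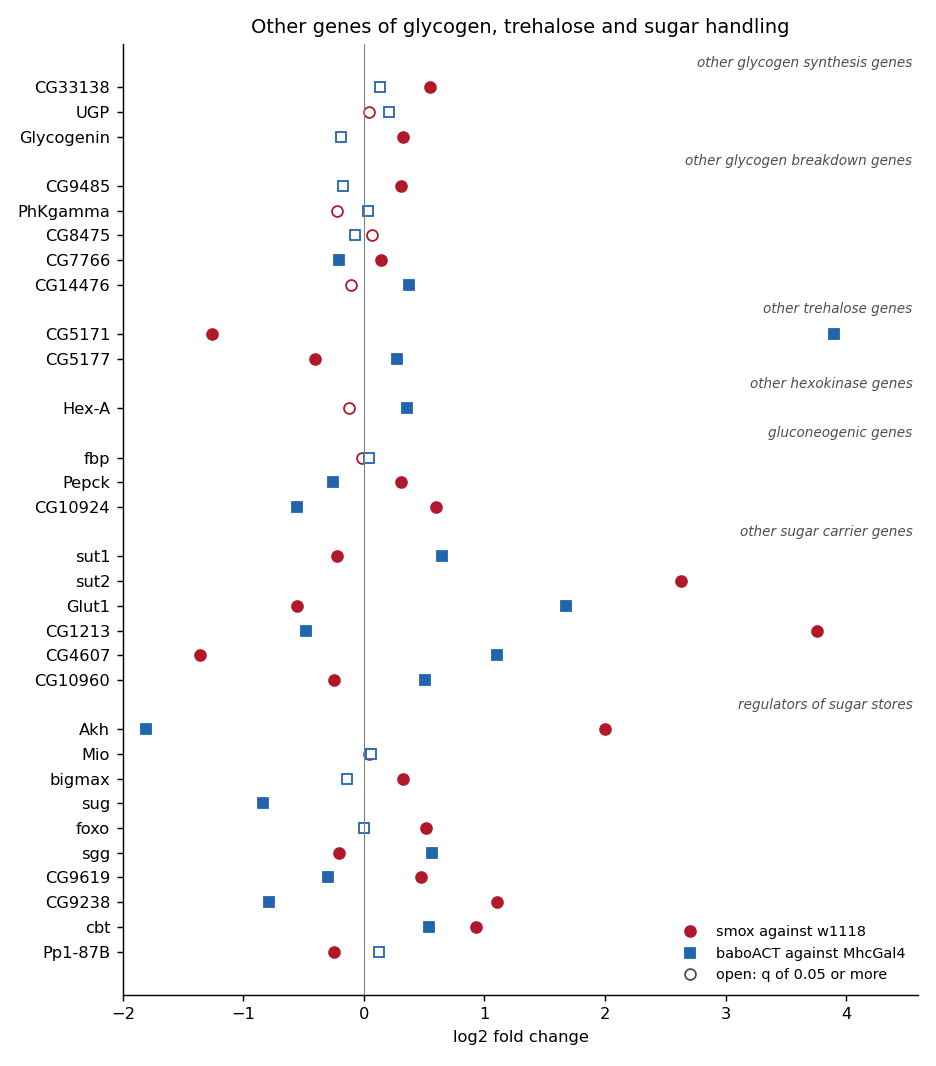
Log2 fold changes of the tested genes outside the members, grouped by role, with red circles for smox against w1118 and blue squares for baboACT against MhcGal4, open where q was 0.05 or more. Most rows with 2 filled symbols have them on opposite sides of 0, with cbt on the right side for both, and CG5171 has the largest distance between its symbols.

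For each member called in both experiments, the genes most like it over both fold changes were taken by straight-line distance on the log2 scale. Candidates had a mean of at least 10 FPKM in both tables. The nearest to Treh were blot, CG4420 and CR18854, at distances of 0.07, 0.11 and 0.16, and blot went from 49.5 to 17.3 FPKM and from 33.3 to 42.7 FPKM. The nearest to Tret1-1 were CG14984, TwdlX and CG11668, at 0.09 to 0.13. Nop60B, CG9172 and Marf were nearest to GlyP, and the row CG42488,CG5116, CG42822 and CG17562 nearest to Tps1. Within 0.2 of the member lay 251 genes for GlyP, but 4 for Treh, 5 for Tret1-1 and 9 for Tps1, of about 4180 candidates. These likenesses rest on 2 comparisons.

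Markers of other tissues moved between the groups as well, and their part in the changes above was not tested. Beside the counts below, 18.4% of all genes tested rose and 39.8% fell in smox, and 29.1% rose and 14.7% fell in baboACT. Counts near these shares say little about a tissue. Salivary gland glue genes fell in 5 of 5 tested cases in smox (summed level 495 to 31.4 FPKM) and rose in 6 of 6 in baboACT (52.7 to 2098 FPKM). Midgut genes fell in 5 and rose in 1 of 7 in smox (437 to 57.2 FPKM) and fell in 2 of 6 in baboACT (381 to 124 FPKM), with Amy-p at 0 in all groups and Jon99Ci at 0 in w1118 and smox. Hemocyte genes rose in 3 and fell in 5 of 8 in smox (207 to 197 FPKM) and rose in 1 and fell in 4 of 8 in baboACT (163 to 134 FPKM). Muscle genes rose in 5 and fell in 1 of 11 in smox and fell in 6 of 10 in baboACT, with median log2 fold changes of 0.08 and -0.36, and Act57B is listed at 0 in all groups. Their summed levels, 45151 and 42346 FPKM in w1118 and smox and 41629 and 45796 FPKM in MhcGal4 and baboACT, include the rows listed at 0. Mhc is listed at 2892 FPKM in w1118 but 0 in smox. In MhcGal4 Mhc and Mlc2 are listed at 0, but in baboACT at 3350 and 10733 FPKM. The sums therefore give no direction for muscle in either experiment. Epidermal genes rose in 3 and fell in 4 of 7 in smox (56484 to 76191 FPKM) and rose in 5 of 7 in baboACT (45256 to 60427 FPKM), with Lcp4 at 0 in all groups, Lcp1 in the first experiment and Lcp3 in the second. Tracheal genes rose in 2 of 4 in smox (1242 to 1548 FPKM) and 0 of 4 were called in baboACT (1236 to 1185 FPKM). Of the nervous system genes 0 were called in either experiment (7.36 to 8.91 and 8.41 to 7.06 FPKM).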

How the data were processed

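Carcass RNA was taken up in TRIzol and purified on columns before TruSeq RNA library preparation, per the labels' protocols. Cufflinks and Cuffdiff are named, with no version, in the submitters' processing notes. No source used here gives the aligner, annotation, genome build, strand setting or depth. Per the file headers, the authors deposited 1 FPKM per gene and group, their log2 fold change, a test statistic (a score with no fixed range), a p-value and its adjusted q-value. The lowest p was 5e-05 in both tables. The design had foreseen limma on values per library; 0 columns hold these, so the authors' q-values are the only test.

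Fold changes were computed from the deposited FPKM with no pseudocount (Python 3.11.15, pandas 2.3.3) and the calculation was tested on made tables with known folds. Rows were used where the authors had tested them, both groups were above 0, the mean FPKM was at least 1 and the gene name occurred once. The FPKM could not be turned back into fragments: between 29.2% and 35.7% of low values came within 10% of a unit of a whole multiple at the best spacing tried, where 20% would do so at any spacing. Table starts were 1 less than BDGP6 starts for 431 of 1860 genes on 2L, so 1 was added to each printed start. On 2R the builds differ, so BDGP6 and RefSeq (Release 6 plus ISO1 MT) served only for current names, strand and overlap between genes. No sequence is shown.

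The genes and gene lists were chosen with earlier results of these data known. Outside the members, the text names up to 4 called genes per list and experiment by the size of the fold, with their counterparts; the others it names were chosen after their values were seen. The alternatives were other pseudocounts, scalings, thresholds and minimum levels.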

Additional observations from a re-analysis of the deposited data

How the results depend on the processing

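No paired analysis was possible because the tables hold 1 value per group, and leaving out each replicate was not run for the same reason. The group values limit every result, since neither depth nor spread between libraries is known. Of 84 alternative values of the members' fold changes, 80 kept their direction. A pseudocount cannot turn a direction, and the authors' log2 fold change is the same quantity. Only the rescaled values could therefore have turned, and the count of 80 overstates how firm the directions are. The 4 that turned were of changes that were not called: CG6904 in baboACT went to -0.050 when centred on the median fold, -0.027 when scaled by total FPKM without the 10 highest rows and -0.14 after quantile normalization, and Hex-C in smox to -0.034 after quantile normalization. Among called genes, members and other pathway genes alike, 0 changed sign under these 3 scalings. Quantile normalization moved the fold changes of 3 of 5 called members (GlyP, Treh and Tret1-1) and of 8 of 18 other called pathway genes in baboACT by more than 1.5 times, and in smox those of GlyP among 5 and of 2 among 22. Centring did so in smox for GlyP and for 6 of the 22. Centring moved the median of the members in smox to 0.32 and that of the other pathway genes in smox to 0.21. It turned the median of the other pathway genes in baboACT to -0.039, and scaling by total FPKM turned it to -0.016. With a log2 fold change of at least 0.5 in size also required, the calls were 3 members, 11 other pathway genes and 1981 of all genes in smox, and 1 member, 11 other pathway genes and 1399 of all genes in baboACT. A q under 0.01 removed Tps1 in smox and Tret1-1 in baboACT from the called members. The cause of these shifts was not tested.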

Other observations

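Within the route of trehalose synthesis, transcripts of the phosphatase-domain genes CG5171 and CG5177 far exceeded those of Tps1. The level of CG5171 was 353 times that of Tps1 in w1118 and 102 times in smox, and 30.9 times in MhcGal4 and 854 times in baboACT. The balance between the neighbouring genes CG5177 and CG5171 changed as well, from 7.94 in w1118 to 14.3 in smox and from 33.0 in MhcGal4 to 2.68 in baboACT. These ratios were chosen after their values were seen, have no replicates and were not tested. The domains of Tps1 were not examined, so the ratios compare genes and not steps of the route.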
